A study of Mus musculus with 48 samples.

Results

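The data described here are the 6 nuclear RNA libraries taken from mouse liver early in the feeding phase, at zeitgeber times ZT14, ZT16 and ZT18 (hours after lights on), with 3 libraries from Nono-/- mice and 3 from wild-type mice. The nuclei came from homogenised whole liver, so all liver cell types contribute. The libraries were chosen by fraction and time from the 48 libraries of the series, of which 24 are nuclear, and a Nono-/- and a wild-type library of the same time form a pair. All mice were C57BL/6 of 14 weeks on a daily cycle of 12 h light and 12 h dark. Food was given in the dark phase alone for the week before collection, so that the animals were some hours into their daily meal. Each library is a pool of 2 mice, there is 1 library per genotype and time, and the labels do not give how the Nono allele was made or which part of the gene it removes. The other 18 nuclear libraries, from the 9 remaining times of the day, and the total RNA libraries of the same livers are used to set the nuclear values at ZT14 to ZT18 against them, and the nuclear ones also to estimate the spread between pairs.

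NONO is a nuclear protein of the DBHS family, with SFPQ and PSPC1, that binds RNA and DNA, is found in paraspeckles, and takes part in transcription, splicing and retention of RNA in the nucleus. In the liver, feeding raises insulin and delivers glucose, so that genes of glucose use and fat synthesis are transcribed while those of glucose output are held down by the removal of FOXO factors from the nucleus. Signal over introns comes from RNA that is not yet spliced and follows recent transcription more closely than signal over exons, which in a nuclear library holds unspliced and spliced RNA together.

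The measure is FPKM, fragments per kilobase of sequence scaled to library depth, given by the authors for the introns and for the exons of each gene. Sets of 3 values below are in the order ZT14, ZT16 and ZT18. Changes are log2 differences of Nono-/- minus wild type averaged over the 3 pairs. They were taken after scaling each library to the median gene. Their standard errors (SE) come from a limma model of all 24 nuclear libraries in which the time point is a block and the genotype difference is fitted in 4 windows of the day. FPKM values are printed as deposited. A gene is said to have risen or fallen where its Benjamini-Hochberg adjusted p was under 0.05. Depths were 12.7, 25.9 and 27.7 M reads in Nono-/- and 18.7, 15.4 and 15.9 M reads in wild type. Introns held 73.9, 74.3 and 75.4% of this whole library depth in Nono-/- and 76.1, 72.7 and 74.2% in wild type. Depth and intron share overlapped between the genotypes. Without scaling, the median change over all genes was -0.03 in introns and -0.12 in exons, and changes are given relative to it. The 10 most abundant genes took 18.5, 19.4 and 21.5% of exon signal in Nono-/- and 16.9, 16.7 and 16% in wild type, without overlap (exact paired permutation test, two-sided p = 0.25, the smallest that 3 pairs allow). Genes with at least 1 FPKM over exons numbered 8414, 8117 and 6788 in Nono-/- and 7781, 8493 and 8397 in wild type, the Nono-/- library of ZT18 having the fewest of the 6. With 1 pool per genotype and time, p-values measure the spread between pairs of different times.

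Nono fell in the nuclei of the Nono-/- livers, its neighbour Itgb1bp2 fell with it, and En2 was the only other gene to pass the test in these pairs. In introns 1 gene rose (En2) and 2 fell (Nono and Itgb1bp2) of 11989 tested, 0.00834% and 0.0167% or 0.025% together, while 351 and 371 genes had an unadjusted limma p under 0.05 in each direction. In exons 2 genes fell (Nono and Itgb1bp2) of 10476 tested, 0.0191%, and 0 rose by limma, with 354 higher and 327 lower at an unadjusted p under 0.05. The gene next to the threshold in introns, named for its rank after its values were seen, was Abcg2, an export pump of the cell surface. It had 1.47, 1.68 and 1.44 FPKM in Nono-/- and 0.952, 1.12 and 0.804 FPKM in wild type (0.68 ± 0.12, adjusted p = 0.508). All 3 Nono-/- libraries lay above wild type. In exons it was G6pc (1.06 ± 0.20, adjusted p = 0.472). Pathway genes below did not pass the test in nuclear RNA and are described by their values in each library. Their adjusted p ran from 0.549 to 0.827 in introns and from 0.472 to 0.972 in exons over 38 of them.

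Nono introns gave 0.45, 0.398 and 0.484 FPKM in Nono-/- and 1.49, 1.54 and 1.52 FPKM in wild type, or 0.444 ± 0.0433 in Nono-/- and 1.52 ± 0.02403 in wild type (SD, n = 3 each). All 3 Nono-/- libraries lay below all 3 of wild type, and the gene fell by 1.65 ± 0.13 on the log2 scale (limma adjusted p = 2.97e-04), 3.13-fold lower on that scale, which adds a pseudocount. The intron reads behind these values were 94, 170 and 221 in Nono-/- and 459, 390 and 397 in wild type. Over exons the loss was nearly complete, with 0.032, 0.016 and 0 FPKM in Nono-/-, which stand for 1, 1 and 0 reads, against 2.42, 2.49 and 2.59 FPKM in wild type, from 111, 94 and 101 reads (-4.42 ± 0.23, adjusted p = 3.40e-06). Intron reads of the locus were fewer in Nono-/- nuclei, while exon reads were almost absent. Total RNA of the same livers held 0.019, 0 and 0 FPKM over Nono exons in Nono-/- and 10.7, 8.74 and 10.7 FPKM in wild type. In a fit of the 6 libraries alone, with 2 residual degrees of freedom, the adjusted p of Nono was 0.112 in introns and 0.1 in exons. The gene lies on the X chromosome at chrX:101429651-101448593 (mm10, plus strand).

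Itgb1bp2, which encodes the muscle chaperone melusin, starts 516 bases after the end of Nono on the same strand (chrX:101449109-101453541). No read was counted over its introns in Nono-/-, whereas wild type held 0.957, 0.976 and 1.19 FPKM from 56, 47 and 59 reads. With a floor of 3 reads over the group it was at least 71.7-fold lower in Nono-/- (limma adjusted p = 6.05e-08). Its exons were also at 0 in all 3 Nono-/- libraries, against 1.67, 1.32 and 1.62 FPKM in wild type from 40, 26 and 33 reads, at least 43.8-fold lower (adjusted p = 4.96e-04, and 0.44 in the fit of the 6 libraries alone). Signal of this gene in wild type cannot be told apart from transcription that runs on past the end of Nono, since the values are sums over a gene. Of the 10 neighbours of Nono on the X chromosome tested in introns, 1 was higher and 2 were lower at all 3 times, Itgb1bp2 included, where 10.8% and 12.4% of all genes were. Taf1, a subunit of the general transcription factor TFIID, had 0.604, 0.652 and 0.775 FPKM in Nono-/- and 0.63, 0.634 and 0.568 FPKM in wild type (0.15 ± 0.14). Ogt, the enzyme that adds N-acetylglucosamine to nuclear proteins, had 2.77, 2.67 and 2.79 FPKM in Nono-/- and 2.52, 2.84 and 2.54 FPKM in wild type (0.08 ± 0.12). Med12, a part of the Mediator kinase module, had 0.674, 0.769 and 0.595 FPKM in Nono-/- and 0.88, 0.767 and 0.908 FPKM in wild type (-0.29 ± 0.11, adjusted p = 0.803).

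En2, a homeobox gene of the developing brain, was the single gene that rose in introns. It had 0.752, 0.579 and 0.356 FPKM in Nono-/-, from 28, 44 and 29 reads, and 0, 0.022 and 0 FPKM in wild type, from 0, 1 and 0 reads (3.38 ± 0.26, limma adjusted p = 2.77e-04). Every Nono-/- library was above every wild-type library. Over exons En2 was under the filter and was not tested, with 0, 0.044 and 0.01 FPKM in Nono-/- and 0, 0 and 0 FPKM in wild type. As background, a fragment of En2 with a splice acceptor is a common part of gene-trap cassettes, but the labels do not say whether this allele holds one. Reads from an inserted fragment and from the gene on chromosome 5 (chr5:28165696-28172166, plus strand, overlapped on the other strand by Gm43610) cannot be told apart in these values. Pspn, which encodes the growth factor persephin, was picked after its values were seen. It was listed at 0 over introns in all 3 Nono-/- libraries and at 0.615, 1.49 and 1.45 FPKM in wild type, but did not pass the test (-4.50 ± 1.23, adjusted p = 0.61).

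**Figure D1:**
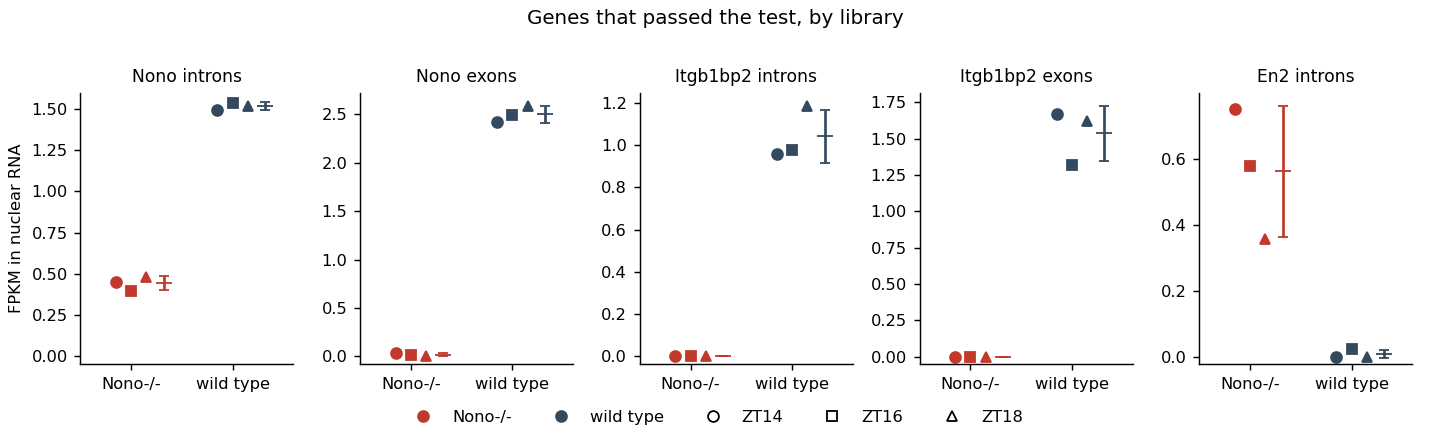
FPKM in nuclear RNA (vertical axis, linear from 0) of the genes that passed the test, with 1 point per library (circle ZT14, square ZT16, triangle ZT18; Nono-/- in red, wild type in dark blue) and the mean ± SD of the 3 libraries beside them. Nono introns stay at 0.398 to 0.484 FPKM in Nono-/-, Nono exons and both Itgb1bp2 values are at or close to 0 in Nono-/-, and En2 introns are at 0 to 0.022 FPKM in wild type.

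Over all genes the 3 pairs resembled each other little. The SD of the pair differences over 11989 genes was 0.50, 0.37 and 0.56 log2 units in introns and 0.62, 0.50 and 0.80 over 10476 genes in exons, widest at ZT18. Between pairs, differences correlated over genes at -0.03 (ZT14 with ZT16), -0.03 (ZT14 with ZT18) and 0.08 (ZT16 with ZT18) in introns, and at -0.05, -0.05 and 0.06 in exons, where genes are no replicates and each correlation joins 4 separate libraries. In total RNA of the same livers the same 3 correlations were 0.39, 0.30 and 0.26 over 11202 genes. Of all genes tested in introns, 10.8% were higher and 12.4% lower in Nono-/- at all 3 times, and in exons 10.8% and 12.2%, so the gene lists below are read against these shares. The Nono-/- libraries lay above all wild-type libraries for 3.26% of genes in introns and below them for 3.93% (exons 2.04% and 4.67%, FPKM as deposited).

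Igfbp1 and G6pc, a pair of fasting genes that insulin represses, had more intron signal in Nono-/- than in wild type at each of the 3 times. Igfbp1, an insulin-like growth factor binding protein secreted by the liver and repressed by insulin through FOXO1, had 2.75, 5.63 and 5.2 FPKM in Nono-/- and 0.33, 2.11 and 1.03 FPKM in wild type over introns. The Nono-/- values lay above all wild-type values, farthest at ZT14, and the change of 2.21 ± 0.54 had an adjusted p of 0.549. Exons gave 3.12, 5.48 and 6.95 FPKM in Nono-/- and 0.353, 3.09 and 1.25 FPKM in wild type (2.12 ± 0.46, adjusted p = 0.495), where Nono-/- at ZT14 was only just above wild type at ZT16. G6pc, the glucose-6-phosphatase that releases glucose from the liver, had 59.5, 56.8 and 37.2 FPKM in Nono-/- and 17.1, 21.1 and 22.4 FPKM in wild type over introns (1.34 ± 0.31, adjusted p = 0.549). Over exons it had 124, 104 and 73.9 FPKM in Nono-/- and 38.5, 62.6 and 54.9 FPKM in wild type (1.06 ± 0.20). In both measures all 3 Nono-/- libraries were above all 3 of wild type, and the gap was widest at ZT14. In total RNA the values overlapped, with 164, 155 and 191 FPKM in Nono-/- and 179, 170.2 and 203 FPKM in wild type over G6pc exons (-0.13 ± 0.21). The test of nuclear minus total change gave 1.19 ± 0.35 (adjusted p = 0.781).

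The 250 bases before the annotated start of both genes are shown because the TGTTT core read by FOXO factors in insulin response sequences, in capitals here on either strand (TGTTT or AAACA), lies in each. They are RefSeq sequence of GRCm38.p6, plus strand, 5′ to 3′, at chr11:7197537-7197786 and chr11:101367466-101367715.
Igfbp1: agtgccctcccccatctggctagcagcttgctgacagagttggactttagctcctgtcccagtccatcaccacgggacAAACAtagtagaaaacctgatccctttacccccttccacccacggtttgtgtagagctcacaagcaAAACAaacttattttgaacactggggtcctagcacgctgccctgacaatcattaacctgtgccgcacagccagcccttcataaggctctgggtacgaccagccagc
G6pc: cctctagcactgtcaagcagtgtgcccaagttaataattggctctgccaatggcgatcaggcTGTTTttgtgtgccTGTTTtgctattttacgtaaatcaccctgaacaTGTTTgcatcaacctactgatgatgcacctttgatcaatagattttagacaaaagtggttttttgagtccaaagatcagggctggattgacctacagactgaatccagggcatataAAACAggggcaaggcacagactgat
Igfbp1 has 2 matches and G6pc 4. Such a short motif is in 46.4% of the 32851 promoter windows of this length in the table, in 8 of 15 windows of the insulin-like growth factor list and in 5 of 13 of the gluconeogenesis list, so that a match describes the letters and marks no site.

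Among the 10 tested genes of gluconeogenesis, G6pc included, 3 were higher and 0 lower at all 3 times in introns, with a median change of 0.00, against -0.01 for all genes tested. Pck1, phosphoenolpyruvate carboxykinase, had 99.9, 76.9 and 44.95 FPKM in Nono-/- and 54.1, 65.8 and 32.95 FPKM in wild type (0.54 ± 0.31), higher within each pair but overlapping between groups. Gpt, alanine aminotransferase, was higher in Nono-/- at ZT14 and lower at ZT16 and ZT18, with 4.99, 1.77 and 0.595 FPKM in Nono-/- and 1.86, 2.93 and 4.37 FPKM in wild type (-0.67 ± 0.67). Pcx, pyruvate carboxylase, had 3.66, 2.94 and 3.02 FPKM in Nono-/- and 3.48, 2.81 and 2.94 FPKM in wild type over introns, close in each pair. Over exons it had 8.83, 5.89 and 1.71 FPKM in Nono-/- and 5.86, 8.28 and 7.08 FPKM in wild type, lowest in Nono-/- at ZT18. Over nuclear exons the gluconeogenesis list was 1 higher and 1 lower at all 3 times of 10 tested, median -0.21, and by time 0.27, -0.28 and -0.33. In total RNA it was 2 higher and 3 lower of 10, median -0.19, where 27.6% and 26.4% of all genes were. In introns the members of the insulin signalling list were 2 higher and 8 lower at all 3 times of 20 tested with a median of -0.09. Foxo1 itself had 6.76, 5.62 and 5.74 FPKM in Nono-/- and 9.599, 5.25 and 5.88 FPKM in wild type, the wild-type library of ZT14 standing above the other 5.

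Genes of the insulin-like growth factor axis, which growth hormone controls in the liver, were 2 higher and 1 lower at all 3 times of 10 tested in introns, with a median of 0.07. Igf1, the liver's main growth factor, had 5.33, 7.29 and 13.6 FPKM in Nono-/- and 25.3, 6.67 and 11.02 FPKM in wild type over introns (-0.58 ± 0.64). Socs2, a feedback inhibitor that growth hormone induces through STAT5, had 0.128, 0.063 and 0.294 FPKM in Nono-/- and 0.785, 0.106 and 0.171 FPKM in wild type (-0.67 ± 1.01). In both genes the wild-type library of ZT14 stood above the other 5. Igfals, which carries IGF-I in blood, had 2.17, 2.77 and 1.31 FPKM in Nono-/- and 4.46, 1.903 and 4.13 FPKM in wild type (-0.68 ± 0.35). Cyp7b1, an oxysterol hydroxylase of bile acid synthesis, had 5.04, 36.4 and 13.8 FPKM in Nono-/- and 23.2, 5.56 and 5.01 FPKM in wild type (0.67 ± 0.91). The Nono-/- library of ZT16 and the wild-type library of ZT14 were far above the other 4. Lpin1, the phosphatidate phosphatase and nuclear coactivator lipin 1, had 3.35, 1.98 and 3.104 FPKM in Nono-/- and 14.4, 3.46 and 3.46 FPKM in wild type (-0.99 ± 0.58) with the wild-type library of ZT14 on top, and the change was -0.41 without the ZT14 pair. Its difference at the other 9 times was -1.89. Myc, the growth-promoting transcription factor, had 0.12, 0.103 and 0.371 FPKM in Nono-/- and 1.49, 0.297 and 0.312 FPKM in wild type (-1.36 ± 0.62), and its change was -0.42 without the ZT14 pair and -2.20 without the ZT18 pair. Gadd45g, a small stress- and growth-induced protein, had 0.439, 0.108 and 0.402 FPKM in Nono-/- and 2.31, 0.453 and 0.79 FPKM in wild type (-1.59 ± 0.36, adjusted p = 0.549). Every Nono-/- library was below every wild-type library, though narrowly between Nono-/- at ZT14 and wild type at ZT16. Both had their highest value in wild type at ZT14. Of 15 tested genes of growth control and early feeding 2 were higher and 5 lower at all 3 times, with a median of -0.18. Id2, a member of this list with a higher mean in Nono-/- (0.68), is given with the immediate early genes below. Pdgfrl, related to the receptor for platelet-derived growth factor, had 0.09, 0.081 and 0.101 FPKM in Nono-/- and 0.595, 0.355 and 1.81 FPKM in wild type (-2.46 ± 0.57, adjusted p = 0.549), without overlap. It differed by -2.28 at the other 9 times.

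Feeding drives the transcription of glucose and fructose use through ChREBP and insulin, and several of these genes had higher intron values in Nono-/- with smaller differences over exons. Slc2a2 (GLUT2), the main glucose transporter of the hepatocyte surface, had 15.1, 10.6 and 8.64 FPKM in Nono-/- and 8.29, 7.93 and 6.32 FPKM in wild type over introns (0.60 ± 0.25, adjusted p = 0.811). All 3 Nono-/- libraries were above all 3 of wild type, narrowly between Nono-/- at ZT18 and wild type at ZT14. Its exon values overlapped (26.1, 15.6 and 13.9 FPKM in Nono-/- and 14.8, 18.02 and 11.5 FPKM in wild type, 0.41 ± 0.23). Tkfc, the triokinase that phosphorylates glyceraldehyde from fructose, had 16.6, 8.86 and 4.61 FPKM in Nono-/- and 7.71, 3.902 and 3.18 FPKM in wild type over introns (0.96 ± 0.27). Its exons had 34.01, 13.8 and 5.64 FPKM in Nono-/- and 18.7, 15.02 and 11.2 FPKM in wild type (0.03 ± 0.23; exon minus intron -0.93 ± 0.22, adjusted p = 0.586). Pklr, the liver pyruvate kinase, had 4.83, 2.83 and 2.46 FPKM in Nono-/- and 2.505, 1.62 and 1.87 FPKM in wild type over introns (0.72 ± 0.31), higher in each pair, and a change of -0.23 ± 0.17 over exons. Genes on the other strand overlap Tkfc (Cyb561a3), Pklr (Hcn3) and Slc2a2 (1700112D23Rik), and their reads cannot be told apart in these values, the contrast of introns and exons included. Over the 19 tested genes of the list 5 were higher and 1 lower at all 3 times in introns, with medians of 0.41, 0.16 and -0.06 by time. Over exons the 16 tested genes were 1 higher and 4 lower, with medians of 0.11, -0.12 and -0.47. In total RNA of the same livers 2 were higher and 10 lower at all 3 times of 20 tested, with a median of -0.22. Of all genes in total RNA 27.6% and 26.4% were.

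Genes of fat synthesis did not hold one direction over the 3 pairs. Thrsp, a lipogenic regulator that carbohydrate induces, had 65.2, 54.1 and 36.9 FPKM in Nono-/- and 38, 26.9 and 20.6 FPKM in wild type over introns (0.90 ± 0.33). The exon values were 74.7, 48.2 and 21.6 FPKM in Nono-/- and 38.5, 44.4 and 35.5 FPKM in wild type (0.23 ± 0.32). The intron values were higher in Nono-/- at each time but overlapped, since wild type at ZT14 was above Nono-/- at ZT18. Fasn, fatty acid synthase, had 14.1, 15.3 and 3.09 FPKM in Nono-/- and 4.84, 9.51 and 6.67 FPKM in wild type (0.39 ± 0.59). The Nono-/- library of ZT18 was the lowest of all 6, while those of ZT14 and ZT16 were the highest. Srebf1, the insulin-induced activator of fat synthesis, had 7.26, 6.52 and 2.52 FPKM in Nono-/- and 4.43, 4.91 and 5.101 FPKM in wild type over introns (0.06 ± 0.33), likewise lowest in Nono-/- at ZT18. In total RNA Srebf1 fell by 1.05 ± 0.24 (limma adjusted p = 0.049). Like the other calls in total RNA named below, that of Srebf1 was lost when any 1 of the 3 pairs was left out. Pnpla3, a lipid-droplet protein under SREBP-1c, had 0.125, 0.149 and 0.108 FPKM in Nono-/- and 0.122, 0.503 and 0.446 FPKM in wild type (-1.01 ± 0.41), close at ZT14 and lower in Nono-/- at ZT16 and ZT18. The 17 fatty acid synthesis genes were 1 higher and 2 lower at all 3 times in introns, with medians of 0.29, 0.02 and -0.26 by time. In exons they were 0 higher and 6 lower, with medians of 0.02, -0.11 and -0.66, and their median difference at the other 9 times was -0.53. Plin4, a lipid-droplet coat protein, had 3.06, 2.13 and 0.836 FPKM in Nono-/- and 3.88, 2.17 and 2.81 FPKM in wild type (-0.66 ± 0.28), with the ZT18 library of Nono-/- lowest again.

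**Figure D2:**
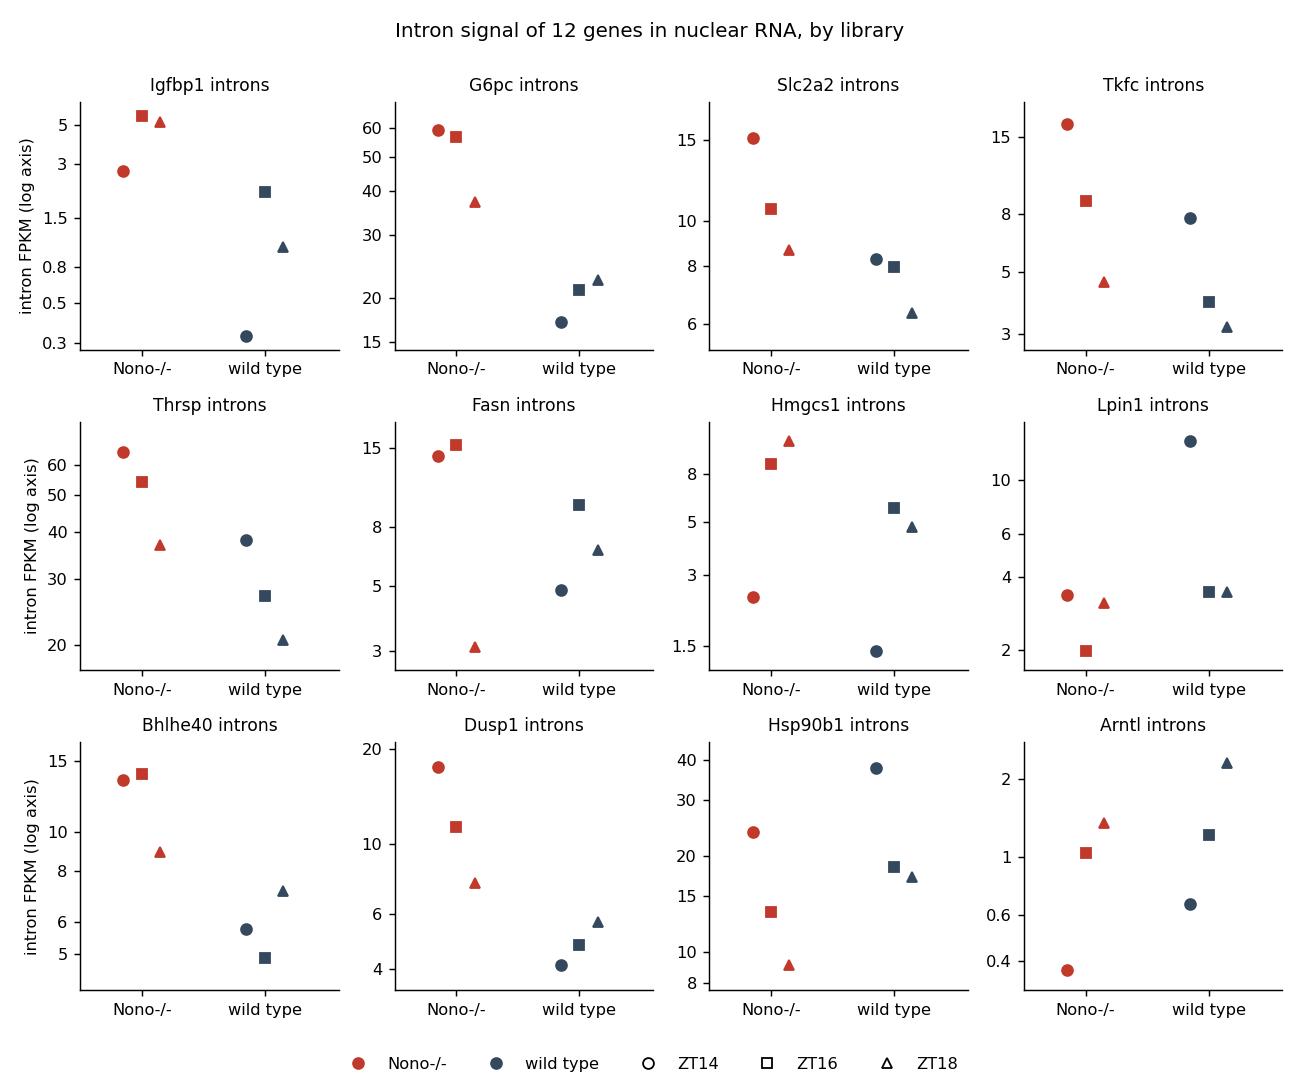
Intron FPKM in nuclear RNA (vertical axes, logarithmic) of 12 genes, with 1 point per library (circle ZT14, square ZT16, triangle ZT18; Nono-/- in red on the left of each panel, wild type in dark blue). For Igfbp1, G6pc, Slc2a2, Bhlhe40 and Dusp1 all 3 Nono-/- points are above all 3 wild-type points, whereas Fasn and Lpin1 each have a library that sets the picture.

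Sterol synthesis genes, which SREBP-2 controls, were more often higher than lower in Nono-/- over introns in nuclear RNA. Of 24 tested genes 10 were higher and 1 lower at all 3 times in introns, 4 and 0 at an unadjusted limma p under 0.05. The median was 0.23, 0.18 and 0.23 by time, against -0.03 at the other 9 times. Hmgcs1, the synthase that opens the pathway, had 2.42, 8.79 and 11.1 FPKM in Nono-/- and 1.42, 5.73 and 4.76 FPKM in wild type over introns (0.88 ± 0.26, adjusted p = 0.641), and is overlapped on the other strand by Gm48342. Msmo1, a sterol C4 oxidase, had 4.03, 7.56 and 8.92 FPKM in Nono-/- and 1.86, 5.65 and 5.02 FPKM in wild type (0.80 ± 0.28). Hsd17b7, the sterol ketoreductase, had 1.23, 2.58 and 2.89 FPKM in Nono-/- and 0.758, 1.71 and 1.27 FPKM in wild type (0.82 ± 0.26). Idi1, isopentenyl diphosphate isomerase, showed 2.63, 5.57 and 9.72 FPKM in Nono-/- and 2.39, 3.23 and 2.904 FPKM in wild type (0.90 ± 0.41). In each of these genes both genotypes were lowest at ZT14 and the ranges overlapped, while the Nono-/- library was above its pair at each time. Over exons 5 were higher and 3 lower of 22, with a median of 0.07, and no member passed the test in either measure. The exon medians by time were 0.33, 0.01 and -0.14. In total RNA of the same livers 7 were higher and 11 lower at all 3 times of 24, where 27.6% and 26.4% of all genes were. The median there was -0.11, with 1 higher and 5 lower at an unadjusted limma p under 0.05.

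Bile acid and biliary transport genes counted 4 higher and 0 lower at all 3 times of 14 tested in introns and a median of 0.30. Abcb4, which moves phosphatidylcholine into bile, had 8.53, 8.302 and 9.83 FPKM in Nono-/- and 4.398, 6.84 and 6.43 FPKM in wild type over introns (0.63 ± 0.17). Exons held 25.9, 22.1 and 19.9 FPKM in Nono-/- and 13.4, 19.3 and 19.5 FPKM in wild type (0.50 ± 0.16). The Nono-/- libraries lay above the wild-type libraries in both, and at the other 9 times the intron difference was -0.09. Gm17936 overlaps Abcb4 on the same strand. Cyp7a1, the rate-limiting enzyme of bile acid synthesis, had 25.7, 27.04 and 14.3 FPKM in Nono-/- and 16.3, 25.98 and 11.8 FPKM in wild type over introns (0.35 ± 0.23). Over exons there were 63.6, 68.03 and 45.3 FPKM in Nono-/- and 33.05, 57.8 and 25.1 FPKM in wild type (0.79 ± 0.33), with overlapping ranges. Abcc2, an exporter of conjugates into bile, differed by 0.42 ± 0.18 in introns. The 30 genes of fat oxidation and ketogenesis under PPAR alpha were 5 higher and 4 lower, with a median of 0.07.

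Among the genes of the core clock 2 were higher and 5 lower in Nono-/- at all 3 times of 18 tested in introns, with a median of -0.04. Bhlhe40 (DEC1), a repressor that clock factors and feeding signals induce, had 13.4, 13.9 and 8.94 FPKM in Nono-/- and 5.75, 4.86 and 7.14 FPKM in wild type over introns (1.04 ± 0.26, adjusted p = 0.549). All 3 Nono-/- libraries were above wild type. The gene is overlapped on the other strand by 0610040F04Rik. Its exons gave 17.4, 14.2 and 6.68 FPKM in Nono-/- and 7.798, 6.55 and 9.07 FPKM in wild type (0.72 ± 0.27), where the order turned at ZT18. Total RNA differed by -0.30 ± 0.18, and the nuclear minus total change was 1.02 ± 0.26 (adjusted p = 0.781). Arntl (Bmal1), the activator that rises at the end of the night, had 0.37, 1.03 and 1.35 FPKM in Nono-/- and 0.663, 1.21 and 2.304 FPKM in wild type over introns (-0.55 ± 0.20), and Gm45355 overlaps it on the other strand. The exons gave 0.607, 1.71 and 3.11 FPKM in Nono-/- and 1.26, 3.204 and 5.597 FPKM in wild type (-0.76 ± 0.31), lower in Nono-/- within each pair, and its difference at the other 9 times was 0.08. Npas2, the partner that can replace CLOCK, had 0.012, 0.023 and 0.191 FPKM in Nono-/- and 0.012, 0.049 and 0.628 FPKM in wild type (-0.61 ± 0.34), alike at ZT14 and lower in Nono-/- at ZT16 and ZT18. Per1, a light- and hormone-induced period gene, had 1.91, 0.934 and 0.764 FPKM in Nono-/- and 2.17, 1.501 and 1.47 FPKM in wild type (-0.56 ± 0.31), and differed by -0.99 at the other 9 times. Per2 was close at ZT14 and ZT16 and lower in Nono-/- at ZT18 (4.66, 3.69 and 1.82 FPKM in Nono-/- and 4.27, 3.501 and 3.404 FPKM in wild type). Nr1d2 (REV-ERB beta), a repressor of Arntl, had 3.07, 2.38 and 1.36 FPKM in Nono-/- and 2.66, 2.03 and 0.923 FPKM in wild type (0.34 ± 0.14), and Clock differed by 0.02 ± 0.10. Among the output factors of the PAR bZIP family, Dbp had 2.86, 1.34 and 0.891 FPKM in Nono-/- and 1.55, 1.13 and 1.23 FPKM in wild type (0.24 ± 0.20), higher in Nono-/- at ZT14 and ZT16 alone.

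Immediate early genes are induced by hormones and stress within minutes. Of 12 tested in introns 4 were higher and 1 lower at all 3 times, and of 8 tested in exons 4 and 1, with medians of 0.03 and 0.35. Dusp1, a phosphatase of stress kinases that glucocorticoids induce, had 17.6, 11.4 and 7.502 FPKM in Nono-/- and 4.11, 4.79 and 5.64 FPKM in wild type over introns (1.27 ± 0.42). Exon values were 14.97, 9.33 and 6.74 FPKM in Nono-/- and 4.39, 5.303 and 5.59 FPKM in wild type (1.05 ± 0.30). All Nono-/- libraries were above all of wild type, with the widest gap at ZT14 in both measures. Klf10, a zinc finger factor that glucose and TGF beta induce, had 3.63, 1.53 and 1.68 FPKM in Nono-/- and 1.45, 0.925 and 0.762 FPKM in wild type (1.05 ± 0.43). Jun is a subunit of AP-1 whose gene has no intron and overlaps the antisense gene Junos. It had 1.11, 1.01 and 0.543 FPKM in Nono-/- and 0.521, 0.429 and 0.356 FPKM in wild type over exons (0.93 ± 0.32). The immediate early list also holds Myc and Gadd45g, given above, whose mean intron changes were lower, at -1.36 and -1.59. Id2, an inhibitor of helix-loop-helix factors, belongs to the growth control list and not to this one. It had 8.96, 13.2 and 6.89 FPKM in Nono-/- and 5.66, 5.86 and 6.23 FPKM in wild type over introns (0.68 ± 0.21). Its difference was 0.79 at the other 9 times.

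Chaperones of the endoplasmic reticulum fold proteins for secretion, and 4 of their main genes had less intron signal in Nono-/- at each of the 3 times. Of the 20 tested genes of the ATF4 and unfolded protein response list 1 was higher and 10 were lower at all 3 times in introns, with medians of -0.40, -0.21 and -0.73 by time. At the level of single genes 5 members were lower at an unadjusted limma p under 0.05. Hsp90b1 (GRP94), the reticulum's HSP90, had 23.9, 13.4 and 9.14 FPKM in Nono-/- and 37.9, 18.6 and 17.2 FPKM in wild type over introns (-0.66 ± 0.25, adjusted p = 0.779), and 1810014B01Rik overlaps it on the other strand. Hspa5 (BiP), its HSP70, had 15.3, 9.26 and 4.84 FPKM in Nono-/- and 28.02, 11.5 and 9.87 FPKM in wild type (-0.71 ± 0.38). Pdia4, a disulfide isomerase, had 5.29, 4.17 and 2.06 FPKM in Nono-/- and 10.7, 5.62 and 5.58 FPKM in wild type (-0.93 ± 0.38). On the same strand Gm15344 and Gm25745 overlap Hsp90b1, and Mir704 overlaps Pdia4. Creld2, another chaperone of the secretory pathway, had 5.16, 1.64 and 0.426 FPKM in Nono-/- and 9.11, 2.32 and 2.65 FPKM in wild type (-1.25 ± 0.53). In all 4 genes both genotypes were highest at ZT14, the Nono-/- library was below its pair at every time, and the ranges of the genotypes overlapped except for Pdia4. Exon changes were -0.40 ± 0.21 for Hsp90b1, -0.36 ± 0.27 for Hspa5, -0.60 ± 0.24 for Pdia4 and -0.65 ± 0.44 for Creld2. In total RNA the list had a median of 0.12, with 0.31 ± 0.21 for Hsp90b1 and 0.28 ± 0.25 for Hspa5, and the nuclear minus total change was -0.71 ± 0.23 for Hsp90b1 (adjusted p = 0.781).

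The promoter of Hspa5 is shown for the endoplasmic reticulum stress element, in capitals, that ATF6 reads with NF-Y. Its letters are CCAAT, any 9 bases, and CCACG. It is RefSeq sequence of GRCm38.p6, plus strand, 5′ to 3′, the 250 bases before the start at chr2:34771840-34772089.
Hspa5: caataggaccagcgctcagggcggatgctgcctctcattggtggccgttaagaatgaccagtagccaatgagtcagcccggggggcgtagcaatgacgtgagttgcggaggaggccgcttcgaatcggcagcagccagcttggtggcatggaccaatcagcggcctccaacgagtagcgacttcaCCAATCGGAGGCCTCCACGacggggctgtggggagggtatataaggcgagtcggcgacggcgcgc
Searched on both strands, the full element was in 0.113% of the 32851 windows and in 3 of the 25 windows found for 23 of the 26 listed genes, those of Creld2, Hsp90b1 and Hspa5. These letters are a description of the window and no measure of binding.

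Genes of the heat-shock and cold response were 0 higher and 4 lower at all 3 times of 13 tested in introns, with a median of -0.08. Bag3, a co-chaperone of HSP70 under HSF1, had 4.81, 2.52 and 2.07 FPKM in Nono-/- and 5.75, 3.63 and 3.32 FPKM in wild type (-0.46 ± 0.14, adjusted p = 0.641), below its pair at each time. The gene is overlapped on the same strand by 2610306O10Rik. Hsph1 (HSP110) had 7.104, 2.498 and 1.505 FPKM in Nono-/- and 7.08, 4.72 and 3.33 FPKM in wild type (-0.65 ± 0.28), equal at ZT14 and apart later. Hspa8, the constitutive HSP70, differed by 0.07 ± 0.19.

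In nuclear RNA, markers of Kupffer cells, the resident macrophages of the liver, were higher in Nono-/- above all at ZT14. In a bulk library more or fewer cells of a type cannot be told apart from more or less RNA per cell. Of 11 tested markers 7 were higher and 0 lower at all 3 times in introns, with medians of 0.82, 0.16 and 0.25 by time, and 6 higher and 0 lower in exons, with medians of 0.99, 0.39 and 0.16. Adgre1, the surface receptor that defines them, had 4.11, 4.996 and 3.37 FPKM in Nono-/- and 1.31, 3.75 and 2.5 FPKM in wild type over exons (0.91 ± 0.19, adjusted p = 0.472). It passed the test in total RNA (0.68 ± 0.15, adjusted p = 0.0433). Vsig4, a complement receptor, had 3.98, 4.94 and 4.13 FPKM in Nono-/- and 2.104, 4.29 and 3.09 FPKM in wild type over exons (0.61 ± 0.15). It also passed in total RNA (0.73 ± 0.16, adjusted p = 0.0475). Timd4, a receptor for dying cells, had 1.601, 1.997 and 1.33 FPKM in Nono-/- and 0.89, 1.62 and 1.02 FPKM in wild type (0.58 ± 0.16). Clec4f, a lectin of these cells, had 10.1, 9.59 and 5.87 FPKM in Nono-/- and 4.696, 9.103 and 7.05 FPKM in wild type (0.42 ± 0.20). In each of these genes the wild-type library of ZT14 was the lowest of the 6. In total RNA of the same livers the list medians were 0.56, 0.27 and 0.88 by time, largest at ZT18 and not at ZT14. There 8 of 12 tested markers were higher and 0 lower at all 3 times, where 27.6% and 26.4% of all genes were.

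Summed over its 12 markers, the Kupffer signal was 8.41, 9.27 and 6.56 FPKM in Nono-/- and 4.18, 8.55 and 6.33 FPKM in wild type over introns, as deposited. Over exons it was 43.6, 44.5 and 24.99 FPKM in Nono-/- and 17.4, 39.1 and 26.8 FPKM in wild type. The ratio was 2.01 at ZT14 but 1.08 and 1.04 later in introns (2.51, 1.14 and 0.932 in exons), with the ZT14 pair farthest apart, and 0 of the 12 markers were listed at 0 in a whole group. Hepatocyte markers were 1 higher and 5 lower of 17 tested in introns, median -0.09. Hnf4a, the nuclear receptor that defines hepatocytes, had 10.54, 7.51 and 6.297 FPKM in Nono-/- and 13.01, 8.72 and 10.8 FPKM in wild type over introns (-0.41 ± 0.16). It fell by 0.46 ± 0.09 in total RNA (adjusted p = 0.0354). Summed hepatocyte markers ranged from 625.5 to 845 FPKM in Nono-/- and from 551 to 844 FPKM in wild type over introns, and endothelial markers from 8.86 to 10.46 FPKM in Nono-/- and from 9.57 to 11.2 FPKM in wild type. Lymphocyte markers in exons had ratios of 2.37, 1.08 and 1.05. The globin genes Hba-a1, Hba-a2, Hbb-bs and Hbb-bt were listed at 0 over introns in both groups.

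**Figure D3:**
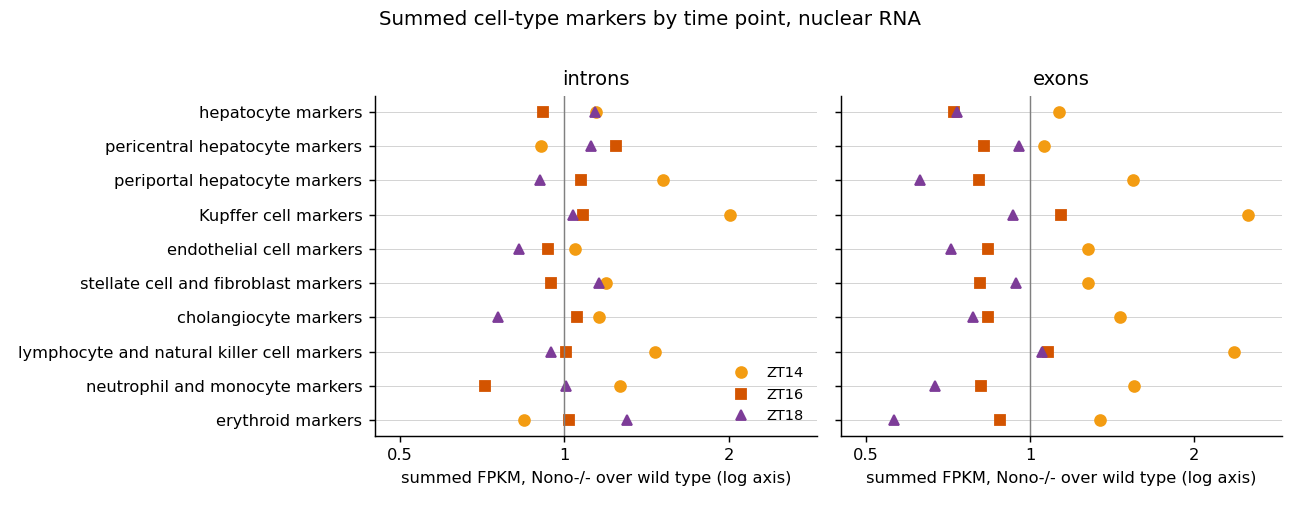
Ratio of summed FPKM, Nono-/- over wild type (horizontal axes, logarithmic to base 2), of 10 lists of cell-type markers in introns (left) and exons (right), as deposited and with 1 point per time (circle ZT14, square ZT16, triangle ZT18). The Kupffer ratio is 2.01 in introns and 2.51 in exons at ZT14 and between 0.932 and 1.14 at the later times, and in exons the ratio is highest at ZT14 in all 10 lists.

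Interferon response genes, many of them expressed in macrophages as well as hepatocytes, were 7 higher and 1 lower at all 3 times of 21 tested in introns, with a median of 0.16. In exons 11 were higher and 2 lower of 16, with a median of 0.33 and 6 higher at an unadjusted limma p under 0.05. Ifih1 (MDA5), a sensor of double-stranded RNA, had 1.503, 1.39 and 1.54 FPKM in Nono-/- and 1.06, 1.19 and 1.26 FPKM in wild type over introns (0.35 ± 0.11). In exons it had 3.42, 3.36 and 3.47 FPKM in Nono-/- and 2.02, 3.07 and 2.76 FPKM in wild type (0.51 ± 0.12, adjusted p = 0.606). Both measures were without overlap, and total RNA rose by 0.62 ± 0.13 (adjusted p = 0.0404). Usp18, the protease that removes ISG15, had 1.19, 1.36 and 1.401 FPKM in Nono-/- and 0.755, 1.09 and 1.12 FPKM in wild type (0.44 ± 0.15). Gbp3, a guanylate-binding protein, had 0.296, 0.26 and 0.226 FPKM in Nono-/- and 0.16, 0.15 and 0.152 FPKM in wild type (0.62 ± 0.19). The Kupffer sums given above were highest relative to wild type at ZT14, where this list had its largest intron median (0.29, 0.19 and 0.04), and their part in it was not tested. Il1b, a macrophage cytokine from the acute phase list, had 1.33, 1.53 and 1.17 FPKM in Nono-/- and 0.298, 0.561 and 0.35 FPKM in wild type over introns (1.67 ± 0.43, adjusted p = 0.549), without overlap. Its reads cannot be told apart from those of the antisense gene Il1bos, because the counting names no strand option. The whole acute phase and iron list was 4 higher and 3 lower at all 3 times of 27 tested in introns, with a median of -0.04. Fga and Fgg, which encode fibrinogen chains, were among its lower members. Fga had 13.7, 15.1 and 28.4 FPKM in Nono-/- and 31.2, 32.9 and 38.8 FPKM in wild type over introns (-0.90 ± 0.44), without overlap. Fgg had 14.6, 17.9 and 30.4 FPKM in Nono-/- and 31.3, 32.6 and 39.6 FPKM in wild type (-0.76 ± 0.41), without overlap as well.

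Zonation was described by markers of the hepatocytes around the central and portal veins. Pericentral genes were 4 higher and 0 lower of 11 in introns, median 0.37, and 0 and 0 of 10 in exons, median 0.06. Their intron medians by time were 0.70, 0.34 and 0.16. Summed intron FPKM of the 11 markers, as deposited, gave ratios of 0.908, 1.24 and 1.12, lower in Nono-/- at ZT14. Periportal genes were 1 higher and 1 lower of 10 in introns, median 0.02. Oat, ornithine aminotransferase, had 4.99, 7.47 and 7.32 FPKM in Nono-/- and 2.92, 3.11 and 3.54 FPKM in wild type over introns (1.04 ± 0.35), without overlap. Over exons its values overlapped (26.8, 27.97 and 18.2 FPKM in Nono-/- and 16.3, 32.2 and 15.5 FPKM in wild type, 0.36 ± 0.19). Oat overlaps Fgfr2 on the same strand in the GENCODE annotation, so reads of the pair cannot be told apart in these values. Cyp1a2, a drug-metabolising cytochrome, had 5.13, 7.88 and 4.34 FPKM in Nono-/- and 2.51, 3.77 and 2.86 FPKM in wild type over introns (0.91 ± 0.37). Its exon change was 0.11 ± 0.30 (exon minus intron -0.80 ± 0.14, adjusted p = 0.389). Glul, glutamine synthetase and the sharpest pericentral marker, differed by 0.16 ± 0.24. Major urinary protein genes, near-identical copies among which reads can be misassigned, were 5 higher and 0 lower of 7 in introns with a median of 0.94. The one with the highest FPKM, Mup3, had 61.97, 84.4 and 42.7 FPKM in Nono-/- and 46.8, 77.8 and 49 FPKM in wild type (0.13 ± 0.34).

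No DBHS or paraspeckle gene other than Nono and no nuclear-retained RNA passed the test. Sfpq, the DBHS partner that pairs with NONO, had 20.6, 19.5 and 24.99 FPKM in Nono-/- and 17.5, 17.9 and 15.9 FPKM in wild type over introns (0.36 ± 0.18). Its exon values were 25.2, 21.9 and 25.4 FPKM in Nono-/- and 20.5, 22.4 and 20.4 FPKM in wild type (0.31 ± 0.18). Pspc1, the third member of the family, had 3.01, 3.04 and 3.36 FPKM in Nono-/- and 2.997, 2.48 and 2.51 FPKM in wild type over introns (0.26 ± 0.14), alike at ZT14 and higher in Nono-/- later, and 0.04 ± 0.12 over exons. The 16 tested DBHS and paraspeckle proteins, Nono included, were 2 higher and 2 lower in introns, median 0.07. Rbm14, needed for paraspeckles to form, differed by 0.26 ± 0.11. Neat1, the RNA that scaffolds paraspeckles and has no intron value here, had 143, 269 and 246 FPKM in Nono-/- and 339, 239 and 295 FPKM in wild type over exons (-0.33 ± 0.37, adjusted p = 0.798). It was lower in Nono-/- at ZT14 and ZT18 and higher at ZT16. Malat1, the abundant RNA of nuclear speckles, had 3237, 3381 and 3330.0 FPKM in Nono-/- and 2274, 2632 and 2391 FPKM in wild type (0.57 ± 0.26, adjusted p = 0.731), and all 3 Nono-/- libraries were above wild type. It is overlapped on the other strand by Gm37376 and on the same strand by Gm27694. Of the 6 tested nuclear-retained RNAs 3 were higher and 0 lower at all 3 times in exons, median 0.41. The 31 SR proteins and splicing regulators were 4 higher and 1 lower in introns, median 0.10.

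**Figure D4:**
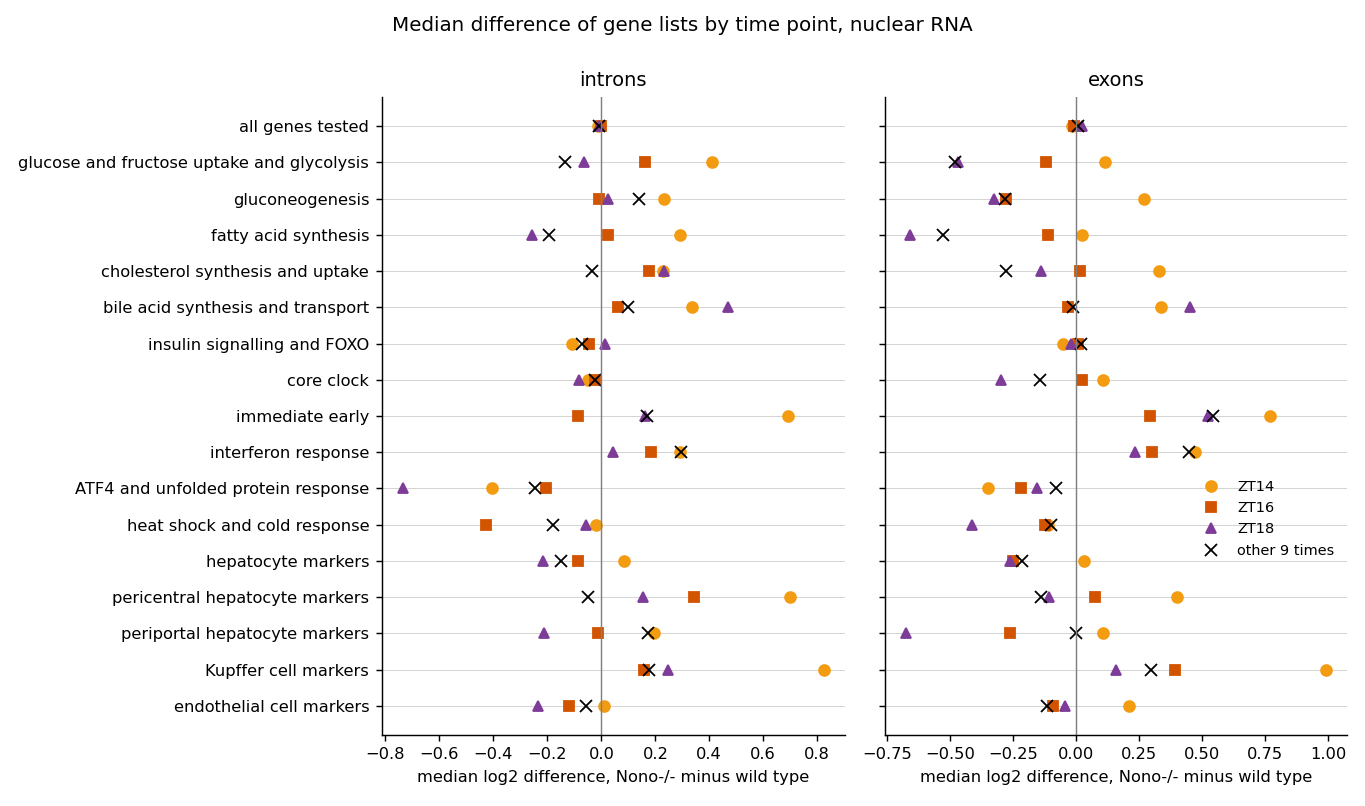
Median log2 difference of Nono-/- minus wild type (horizontal axes) over the tested genes of 16 lists and over all genes tested, in introns (left) and exons (right), for each pair (circle ZT14, square ZT16, triangle ZT18) and for the mean of the other 9 times (cross). The unfolded protein response list is below 0 in introns and exons at all 3 times and the Kupffer list above 0, while glycolysis and fat synthesis are above 0 at ZT14 and below it at ZT18.

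The balance of exon to intron signal changed for 1 gene, Nono. The exon-minus-intron difference fell by 2.78 ± 0.21 for Nono (limma adjusted p = 2.18e-04), the 1 gene called of 9790 tested (0.0102%), with 303 genes higher and 311 lower at an unadjusted p under 0.05. As Nono exons are near 0 in Nono-/-, the size of that value depends on the pseudocount, and the adjusted p was 0.169 in the fit of the 6 libraries alone. Between nuclear and total RNA 1 of 9801 genes passed (0.0102%), again Nono (2.19 ± 0.19, adjusted p = 6.37e-04), for which exons in Nono-/- are at the floor in both fractions. This value too depends on the pseudocount (adjusted p = 0.71 with one 4 times lower). In total RNA of the same livers 132 genes were higher and 84 lower of 11202 (1.18% and 0.75%, or 1.93% together), and 27.6% and 26.4% of genes were higher and lower at all 3 times, against 10.8% and 12.2% in nuclear exons. The groups lay apart as deposited for 13.1% of genes higher and 7.73% lower. Without scaling the total RNA counts were 287 and 53, and with any 1 pair left out 0 to 5 and 1 to 2. Whether the number of changed genes differs between the fractions was not tested.

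No gene's difference at ZT14 to ZT18 passed the test against its difference at the other 9 times: limma called 0 in introns and 0 in exons, with 500 and 332 genes at an unadjusted p under 0.05. The 3 called genes had differences close to the early ones at the other times, at -1.59 for Nono introns, -4.54 for Itgb1bp2 and 3.24 for En2 at the other times. Over 11989 genes the early and the remaining differences correlated at 0.52 in introns and, over 10476 genes, at 0.56 in exons, from separate libraries that share the scaling. The 3 early pairs correlated with each other at -0.03, -0.03 and 0.08 in introns, and which pairs carry the likeness to the other times was not tested. The intron gene nearest to the threshold was Fst, the activin-binding follistatin, with 0.076, 0.243 and 0.332 FPKM in Nono-/- and 0.091, 0.268 and 0.473 FPKM in wild type. Its difference was -0.22 ± 0.19 early and 1.31 at the other times (adjusted p of the contrast = 0.317). Hpx, the plasma protein that binds heme, had 12.8, 15.4 and 12.8 FPKM in Nono-/- and 14.3, 13.5 and 15.1 FPKM in wild type, overlapping, with 1.19 at the other times (adjusted p = 0.7999). Rrm2, the small subunit of ribonucleotide reductase, had 0.51, 0.104 and 0.117 FPKM in Nono-/- and 0.217, 0.07 and 0.085 FPKM in wild type (0.59 ± 0.20), against -0.66 at the other times. Nppa, atrial natriuretic peptide, and Cdk2, a kinase of the cell cycle, had early differences of 1.90 and 0.50 and -0.68 and -0.29 at the other times. In exons Pex11a, which shapes peroxisomes and is a PPAR alpha target, differed by 0.15 ± 0.24 early and -1.08 at the other times (adjusted p = 0.995).

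The early median of a list differed in sign from that of the other 9 times in introns for several lists, and these differences were not tested. Above 0 early and below 0 at the other times were the medians of glucose use (0.10 early and -0.13 at the other times), fatty acid synthesis (0.06 and -0.19), cholesterol synthesis (0.21 and -0.03), pericentral markers (0.37 and -0.05) and major urinary proteins (0.94 and -0.05). The same held for PPAR alpha targets and fat oxidation (0.07 and -0.16), PAR bZIP output genes (0.09 and -0.17) and the glucagon and cAMP response (0.02 and -0.02). It also held for the neighbours of Nono (0.06 and -0.002) and for lymphocyte markers (0.15 and -0.08), the latter with only 2 of 14 genes tested. The opposite order was seen for the acute phase and iron list (-0.04 and 0.06) and cholangiocyte markers (-0.07 and 0.31, with only 3 of 8 genes tested). Interferon (0.16 and 0.30) and unfolded protein response genes (-0.31 and -0.24) had the same sign in both. Igfbp1 differed by 1.29 and G6pc by 0.71 in introns at the other 9 times, below their early values, and Dusp1 by 0.78.

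**Figure D5:**
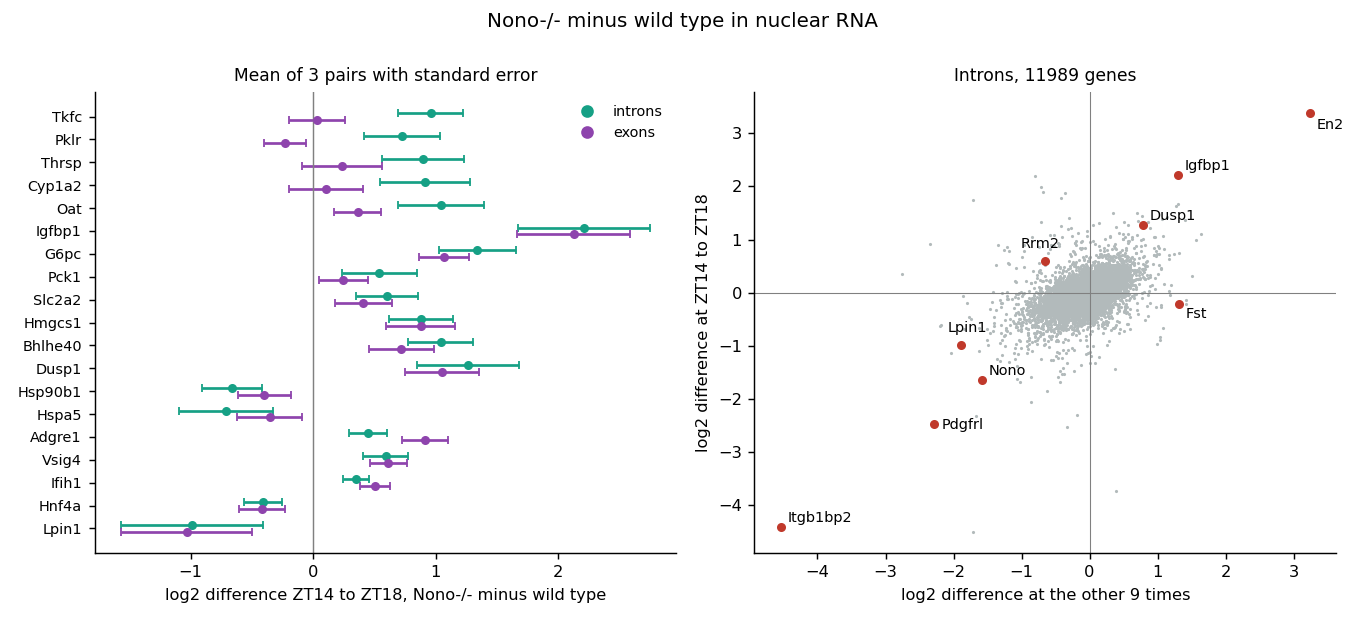
Left, log2 difference of Nono-/- minus wild type at ZT14 to ZT18 (points) with its SE (bars) for 19 genes in introns and exons. Right, the intron difference at ZT14 to ZT18 against that at the other 9 times for 11989 genes; Nono, Itgb1bp2 and En2 lie near the diagonal, whereas Fst (-0.22 early and 1.31 at the other times) and Rrm2 (0.59 and -0.66) lie off it.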

How the data were processed

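Reads were aligned with STAR 2.4.0k to mm10 after a quality check with FastQC 0.11.2, per the submitters' processing notes, and the values are FPKM over exons or introns that the authors made with HOMER analyzeRepeats.pl, per the file headers, where no strand option is named. The deposited FPKM tables hold 24453 genes (exons) and 20771 genes (introns) with 1 column for each of 48 libraries. FPKM are not counts, so log2 values were tested with limma 3.58.1 (R 4.3.3) with a mean-variance trend: libraries were scaled by the median over genes of their ratio to the geometric mean of all libraries, a pseudocount of 0.1 FPKM (exons) or 0.05 FPKM (introns) was added, and genes with a mean under 0.5 or 0.1 FPKM over the 6 libraries were left out. Fold changes on this scale understate the change of low genes. The model held the time point as a block and the genotype difference in 4 windows of 3 times, with 8 residual degrees of freedom. The contrast was the ZT14 to ZT18 window, or that window minus the mean of the other 3. Adjusted p-values are Benjamini-Hochberg over all genes tested, two-sided. Whole reads were computed from FPKM, gene length and depth for the called genes. Depth was 12.7 to 27.7 M reads, and a floor of 3 reads covers counting error only. Sums, medians and motif searches used Python 3.11.15, numpy 2.4.6 and pandas 2.3.3, and figures matplotlib 3.10.9. The scripts were tested on simulated data. The pairs, gene lists and naming rule (called genes first, those with the smallest p against the rest of the day, and from each list up to 4 others) were chosen with earlier results of these data known. Alternatives varied the pseudocount, filter, scaling, block, pairs and libraries in the fit. Some genes of the lists are not reported here by name.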

Additional observations from a re-analysis of the deposited data

Results flagged for a closer look

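For Rrm2, which encodes a subunit of the enzyme that makes DNA precursors, intron signal was higher in Nono-/- in all 3 early pairs (0.59 on the log2 scale) and lower in all 9 pairs of the remaining times (-0.66). The difference between the windows did not pass limma's test (adjusted p = 0.800). For Ppm1m, a protein phosphatase, exon signal was 1.36, 1.33 and 0.522 FPKM in Nono-/- and 1.10, 0.724 and 0.491 FPKM in wild type. Its difference was 0.48 over the early pairs, higher in 3 of 3, and -0.47 at the other times, lower in 9 of 9 (adjusted p of the difference between windows = 0.995).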

How the results depend on the processing

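In introns Itgb1bp2 remained lower under every alternative tried, Nono under all but the fit of the 6 libraries alone (replicate block, adjusted p = 0.112, with Pspn called instead), and En2 remained the 1 higher gene except under a filter 4 times stricter, which leaves it out (0 higher). In exons the 2 lower genes became 0 under that filter, which leaves both out, and 0 in the 6-library fit with its replicate block; 0 to 1 gene was higher with a pair left out (Mir6935 without ZT18, seen only there). Exon minus intron gave 0 lower genes under the stricter filter and in the 6-library fit, 2 without a filter (En2 and Nono), and 0 to 1 higher with a pair left out (C1qa without ZT18). Nuclear minus total gave 0 higher genes with a pseudocount 4 times lower, the stricter filter or the 6-library fit, where 1 gene was lower (Mir7657). Total RNA counts, 132 higher and 84 lower, were 40 and 26 without a filter, 287 and 53 without scaling, 1 and 2 without the replicate block, 0 to 5 and 1 to 2 with a pair left out, and 412 and 294 in the 6-library fit. Against the rest of the day 0 genes passed in every setting, while genes at an unadjusted p under 0.05 went to 1313 in introns and 1649 in exons without ZT18, against 500 and 332. Without scaling, exon changes reversed for Tkfc (-0.083) and Cyp1a2 (-0.0081). With a pair left out they ran from -0.27 to 0.33 for Tkfc, -0.014 to 0.50 for Thrsp and -0.021 to 0.32 for Cyp1a2, below 0 without ZT14. With these and the lost calls of Nono and Itgb1bp2 in the 6-library fit counted as changes, direction and side of the threshold were kept in 406 of 407 combinations of named gene and setting in introns. In exons it was 384 of 391. Most of these genes were far from the threshold in the main fit, so that keeping their side meant staying uncalled and says little about how stable their values are. Intron changes moved by over 1.5 times with a pair left out for Lpin1 (-0.41), Myc (-0.42), Timd4 (0.30) and Orm3 (0.95) without ZT14, Id2 (0.43) without ZT16, and Myc (-2.20), Car1 (0.79), Sdf2l1 (-0.93) and Creld2 (-0.68) without ZT18. The cause of these shifts was not tested. Pairing by time point was checked through deviations from group means, which correlated at 0.20, 0.01 and 0.08 in introns and 0.04, -0.06 and -0.04 in exons at ZT14, ZT16 and ZT18, so the libraries share a time and no more is shown. Without the replicate block introns gave 1 higher and 2 lower and exons 0 and 2. Depth limits low genes: Nono exons rest on 0 or 1 read a library in Nono-/-. The 6 libraries give 3 pairs, and 8 residual degrees of freedom come from the whole day.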
